A study of Mus musculus with 10 samples.

Results

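Interferon response genes are genes that cells switch on when interferon binds its receptors, together with the factors that switch them on. The 38 genes described here were chosen from a list of type I and type II interferon-induced genes, not by their values in these arrays. Of the 38, 35 had probe sets naming only that gene in both deposited tables, against 19048 such genes in all. Of these 35, 33 passed a filter on low signal and were tested, among 12485 genes tested in all. Mx1 and Mx2 were too dim to test. Isg15, Ifi44 and Gbp2 had such probe sets in the exon-level table alone.

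The cells were CD3+ T cells of spleen from Balb/c males 12 weeks old. They had been stimulated over 4 days by anti-CD3 coated on the plate and anti-CD28 in solution. The wild-type (WT) group held 5 samples and the KLF13 knockout (KO) group held 5, named in the labels as separate mice. KLF13 is a zinc finger transcription factor of the Krüppel-like family. The labels name no added interferon, and they do not say how the knockout allele was made or whether WT mice were littermates.

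Type I interferons signal through IFNAR1 and IFNAR2 and the kinases JAK1 and TYK2. The resulting complex of STAT proteins with IRF9 binds interferon-stimulated response elements (ISRE). Type II interferon, made by activated T cells themselves, signals through IFNGR1 and IFNGR2 and acts on gamma-activated sites (GAS). The induced genes include antiviral effectors, sensors of viral nucleic acid, the machinery that loads peptides on MHC class I, and brakes such as USP18.

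Promoter windows from RefSeq (build GRCm38.p6, 250 bases before to 50 after a transcript start) were matched by symbol for 28 of the 38 genes. The ISRE core was searched as GAAANNGAAA, which reads TTTCNNTTTC on the other strand. It was present in 12 of the 28 genes (42.9%), against 1079 of 27025 genes (3.99%) in the whole table. The stretches of 8 of these genes are shown because they carry the element by which the antiviral members are known. Capitals mark every ISRE or GAS core in the stretch, and adjoining capitals are cores that overlap.
Stat2 (chr10:128270251-128270310, plus strand): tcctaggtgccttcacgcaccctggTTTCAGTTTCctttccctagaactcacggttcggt
Ifit1 (chr19:34640769-34640828, plus strand): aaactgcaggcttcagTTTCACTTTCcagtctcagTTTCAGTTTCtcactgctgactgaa
Ifit3 (chr19:34583365-34583424, plus strand): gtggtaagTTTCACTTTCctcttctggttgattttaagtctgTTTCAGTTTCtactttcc
Isg15 (chr4:156200856-156200915, minus strand): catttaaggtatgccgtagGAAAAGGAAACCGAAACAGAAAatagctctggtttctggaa
Rsad2 (chr12:26456538-26456597, minus strand): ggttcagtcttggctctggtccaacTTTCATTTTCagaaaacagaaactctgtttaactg
Oas1a (chr5:120907508-120907567, minus strand): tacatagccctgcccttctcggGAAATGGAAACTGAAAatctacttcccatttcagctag
Oas3 (chr5:120777700-120777759, minus strand): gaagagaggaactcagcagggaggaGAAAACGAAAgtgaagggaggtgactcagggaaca
Gbp3 (chr3:142559977-142560036, plus strand): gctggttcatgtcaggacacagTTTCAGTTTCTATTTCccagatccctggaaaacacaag

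The remaining genes with an ISRE core were Gbp2, Bst2, Ifih1 and Trim30a. The GAS core, TTCNNNGAA, which reads the same on both strands, was present in 7 of 28 genes (25%), against 9.55% of all genes. These were Ifit2, Isg20, Oas1a, Irf1, Ifi35, Bst2 and Psmb8. Irf1 and Psmb8 are shown as a factor and a proteasome subunit with a GAS core, in capitals.
Irf1 (chr11:53769898-53769957, plus strand): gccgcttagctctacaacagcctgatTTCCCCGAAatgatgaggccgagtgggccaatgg
Psmb8 (chr17:34198072-34198131, plus strand): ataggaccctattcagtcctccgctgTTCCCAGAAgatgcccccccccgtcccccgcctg

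Psmb9 and Tap1 are transcribed away from each other on chromosome 17, and their windows share 275 bases. The 250 bases before the Tap1 start are shown because both genes had lower values in KO2 and KO3, as given further on, and they hold neither core.
Tap1 (chr17:34187306-34187555, plus strand): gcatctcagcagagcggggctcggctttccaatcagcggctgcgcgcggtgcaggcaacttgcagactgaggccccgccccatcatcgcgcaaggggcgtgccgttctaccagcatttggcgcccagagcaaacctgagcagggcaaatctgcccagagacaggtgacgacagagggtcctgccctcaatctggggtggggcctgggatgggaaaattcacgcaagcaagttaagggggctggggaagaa

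**Figure D1:**
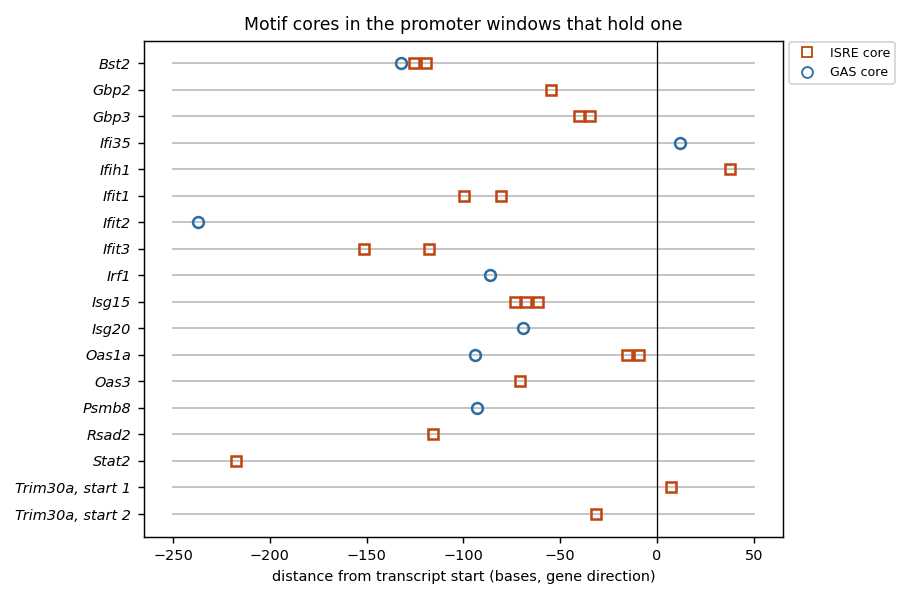
Each line is a promoter window that holds a core, from 250 bases before to 50 after the transcript start, with squares for ISRE cores and circles for GAS cores. Isg15 has 3 overlapping ISRE cores, and the cores of Ifih1, Ifi35 and 1 of 2 Trim30a windows lie after the start.

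Values are log2 RMA signals (a log2 scale on which 1 is a doubling) and no level is compared between genes. Replicates 1 to 3 of each genotype came as exon-level values and replicates 4 and 5 as gene-level values, in separate tables. The array medians of replicate 1 were 5.21 (WT) and 5.23 (KO), and those of replicates 2 and 3 lay from 6.25 to 6.43. WT and KO were therefore compared within 3 scale sets, which are replicate 1, replicates 2 and 3, and replicates 4 and 5. KO3 stood apart in spread, its interquartile range being 3.10, whereas the remaining exon-level columns had 3.43 to 3.57. The bright end was lower in both KO2 and KO3. Their top percentile of signal began at 11.40 and 11.57, against 12.23 in WT2 and 12.31 in WT3. Klf13 itself was lower in 5 of 5 KO arrays, at 0.549 of WT (log2 difference -0.86 ± 0.12 SE, limma adjusted p = 0.0127).

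In the fit over all 10 arrays, no interferon response gene passed an adjusted p of 0.05 in limma. The background was 0.0961% of all genes higher in KO and 0.489% lower. At an unadjusted p under 0.05, 4 of 33 members (12.1%) were lower, which were Usp18, Stat2, Psmb8 and Psmb9, and 0 were higher. The same measure took in 12.8% of all genes lower and 2.1% higher, so the share of members lower lay near the background. Differences ran from -0.65 (Usp18) to 0.24 (Oasl1), with 24 of 33 members lower and a median of -0.11, against a median of -0.10 over all genes tested. The 95% intervals of the differences had half-widths from 0.260 to 0.661 on the log2 scale, and a miss of the threshold does not show that a gene was equal in both genotypes.

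The KO arrays did not move together. The median difference of the 33 members from the WT arrays of their scale set was 0.10 in KO1, -0.31 in KO2, -0.68 in KO3, 0.09 in KO4 and 0.08 in KO5. Over all genes tested these medians were -0.02, -0.11, -0.34, -0.03 and 0.00. By the median, members lay below WT in KO2 and KO3 and slightly above it in the others. KO3 was the lowest of the 5 KO arrays for 23 of 33 members and the highest for 3, counts that were not made over all genes. Below WT in KO3 were 84.8% of members and 63.8% of all genes tested.

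**Figure D2:**
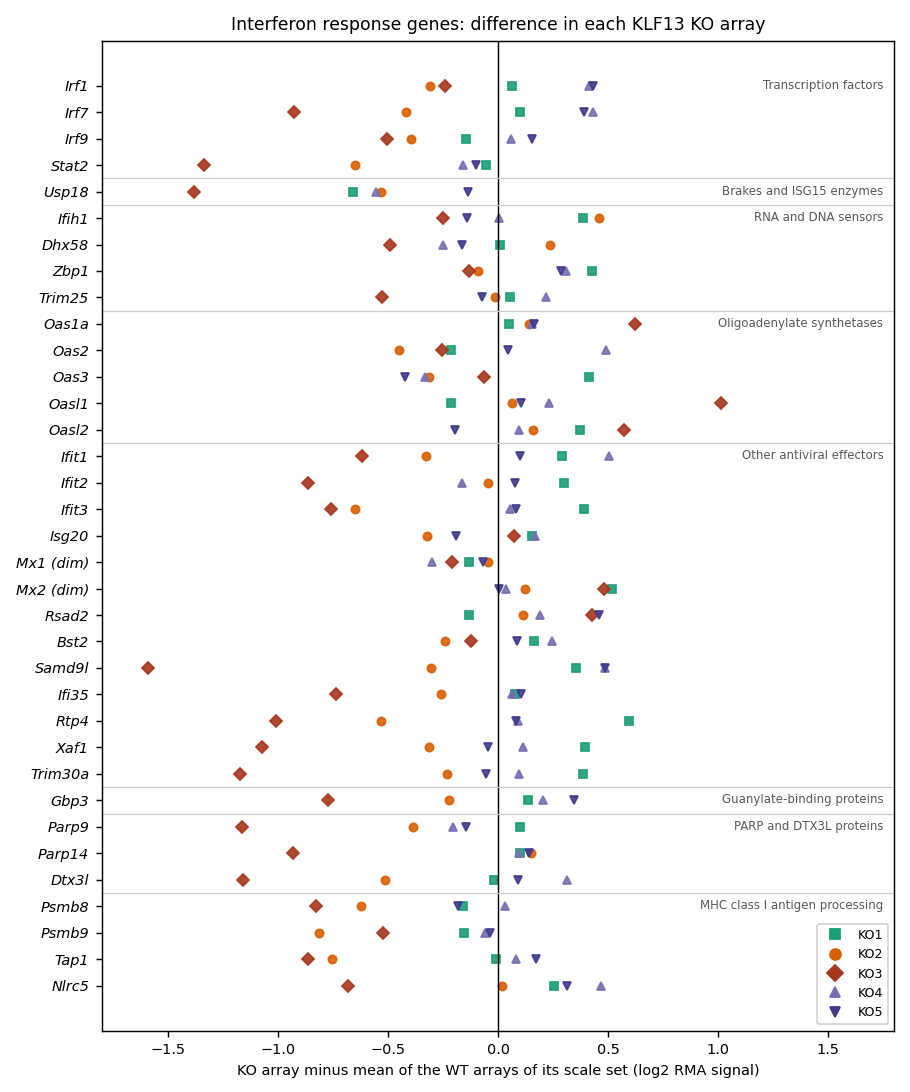
Each point is the log2 difference between 1 KO array and the mean of the WT arrays of its scale set, for the 35 genes in both tables grouped by role. KO3 lies farthest left for most genes and farthest right for Oasl1, at 1.01, while KO4 lies above 0 for 26 and KO5 for 20 of the 33 tested genes. Over all genes tested, 55.7% were below WT in KO4 and 49.9% in KO5.

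In the second scale set, KO2 and KO3 lay below both WT2 and WT3 for 21 of 33 members (63.6%), against 43.1% of all genes. They lay above both for Oasl1, Oasl2 and Rsad2, or 3 of 33, against 11.7% of all genes. With KO3 left out, KO2 lay below both for 23 of 33 (69.7%, background 58.2%), and after quantile normalization within scale sets the count was 17 of 33 (51.5%, background 30.5%). Both settings were chosen after seeing the data. In the gene-level table, KO4 and KO5 lay above WT4 and WT5 for 11 members (33.3%, background 20.3%) and below for 5 (15.2%, background 26%). In every array of every scale set, KO was below WT for Stat2, Usp18 and Psmb9, or 3 of 33 (background 10.8%), and above for 0 (background 1.63%).

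**Figure D3:**
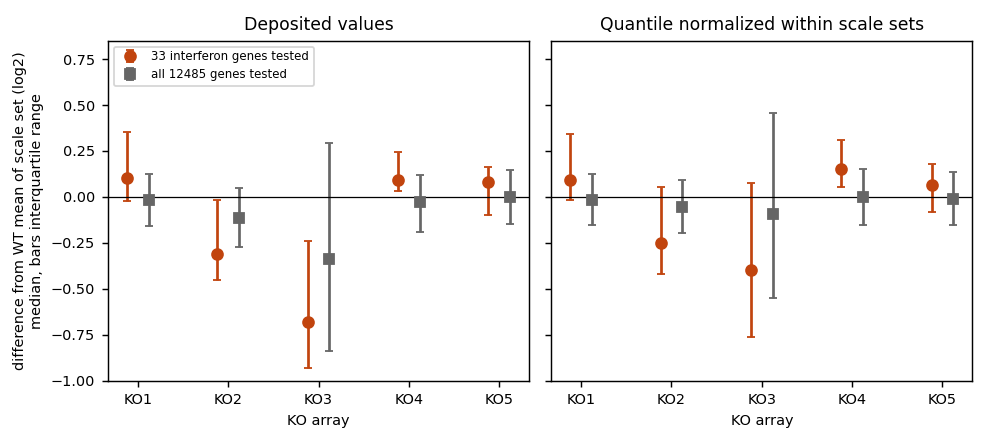
Median and interquartile range of the log2 differences in each KO array, for 33 interferon response genes (circles) and all 12485 genes tested (squares), as deposited and after quantile normalization within scale sets. The member median in KO3 is -0.68 as deposited and -0.40 after normalization, where that of all genes is -0.09.

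Markers of T cells also had negative medians in KO2 and KO3. Of 8 T cell markers 7 were measured and tested, and limma called 0 of them, though 3 of 7 were lower at an unadjusted p under 0.05 (42.9%, background 12.8%). Their median difference was -0.31 in KO1, -0.58 in KO2, -0.83 in KO3, -0.02 in KO4 and 0.09 in KO5. Their mean log2 signal was 9.59 in WT1 and 9.28 in KO1, 10.66 in WT2, 10.69 in WT3, then 9.84 for KO2 and 9.76 for KO3. In the gene-level table it was 9.84 and 10.06 in WT and 9.94 and 9.99 in KO. Cd3e, a chain of the T cell receptor complex that defines the labelled cells, lay between 9.89 and 10.53 in replicates 2 to 5. It was at 9.28 in WT1 and 9.06 in KO1. In KO2 and KO3 Cd3e differed from WT by -0.53 and -0.61, Cd3d by -0.50 and -0.83, and Cd3g by -1.90 and -1.71.

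Most markers of other cells were dim. Of the B and plasma cell markers 3 of 7 measured passed the filter, with a list mean of 5.35 in WT2, 5.44 in WT3, 5.41 in KO2 and 5.57 in KO3. For monocytes and macrophages, 3 of 8 passed, with 5.13 and 5.02 in WT and 5.22 and 5.30 in KO of the same set. Dendritic cell markers passed for 4 of 8 and NK cell markers for 1 of 5. Basophil and mast cell markers passed for 2 of 5, erythroid markers for 3 of 5 and stromal and endothelial markers for 3 of 6. The median difference of those tested in KO4 and KO5 was 0.27 and 0.27 for basophils and mast cells, 0.22 and 0.21 for erythroid cells and 0.02 and 0.02 for stromal cells. Kit, a receptor of mast cells and progenitors, was higher in the gene-level table, at 6.17 and 6.35 in KO against 5.46 and 5.55 in WT (difference 0.75, limma adjusted p = 0.0215). Cpa3, the other tested marker of that list, differed by -0.12 in KO4 and -0.31 in KO5. Over all 5 basophil and mast cell markers measured, the median difference was -0.06 in KO4 and -0.07 in KO5. Pecam1, an endothelial marker also found on leukocytes, was at 6.84 and 7.13 in KO and 6.64 and 6.49 in WT (difference 0.42, limma adjusted p = 0.176). The low-signal filter was 4.74 for exon-level and 3.54 for gene-level values, and RMA values have no zero that would mark a gene as absent. The part of the T cell markers, of KO3 and of these other markers in the results on interferon genes was not tested. Nor was the part of the lower bright end in KO2 and KO3, where the T cell markers are bright genes. In bulk RNA, fewer cells of a type and less RNA per cell cannot be told apart.

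Among the transcription factors, Stat2, the partner of IRF9 in the type I complex, had signals of 7.79 in WT1, 8.69 in WT2, 8.65 in WT3, 8.22 in WT4 and 8.08 in WT5. The KO values were 7.73 in KO1, 8.02 in KO2, 7.33 in KO3, 7.99 in KO4 and 8.05 in KO5. Every KO array lay below the WT arrays of its set, widely in KO2 and KO3 and by 0.16 or less in the others. The difference was -0.46 ± 0.19 SE (limma adjusted p = 0.292), a ratio of 0.727 with a 95% interval of 0.547 to 0.965. Of its 27 exon-level probe sets, 21 were below both WT arrays in KO2 and KO3.

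Irf9, the DNA-binding part of the same complex, was at 8.07 in WT1, 9.04 in WT2, 9.01 in WT3, 8.17 in WT4 and 8.14 in WT5. It was at 7.92 in KO1, 8.63 in KO2, 8.52 in KO3, 8.21 in KO4 and 8.31 in KO5. KO lay lower in the exon-level sets and higher in the gene-level set, without overlap. The overall difference was -0.17 ± 0.12 SE (limma adjusted p = 0.488).

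Irf7, which amplifies the type I response, was at 6.43 in WT1, 7.42 in WT2, 7.61 in WT3, 7.55 in WT4 and 7.23 in WT5. It was at 6.53 in KO1, 7.09 in KO2, 6.59 in KO3, 7.82 in KO4 and 7.78 in KO5. The sets of replicates 2 and 3 and of replicates 4 and 5 each separated the genotypes, in opposite directions. In the gene-level table alone the difference was 0.41 (limma adjusted p = 0.185), and over all arrays it was -0.09 ± 0.20 SE (limma adjusted p = 0.805).

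Irf1, a factor induced mainly by type II interferon, was at 7.88 in WT1, 9.01 in WT2, 9.09 in WT3, 9.64 in WT4 and 9.34 in WT5. It was at 7.94 in KO1, 8.74 in KO2, 8.81 in KO3, 9.90 in KO4 and 9.92 in KO5. KO was again below WT in the second set and above it in the gene-level set. After quantile normalization within scale sets, Irf1 differed by -0.15 in KO2 and 0.127 in KO3, so the second set no longer separated the genotypes. A dimmer gene-level probe set of Irf1, not used in the fit, differed by -0.115, and its genotypes overlapped. The gene-level difference was 0.42 (limma adjusted p = 0.164) and the overall one 0.07 ± 0.14 SE (limma adjusted p = 0.777).

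Usp18, a protease that removes ISG15 from proteins and restrains signalling at the type I receptor, had the lowest difference of all members. Its signals were 6.24 in WT1, 7.0 in WT2, 7.23 in WT3, 7.58 in WT4 and 7.35 in WT5. In KO they were 5.58 in KO1, 6.58 in KO2, 5.74 in KO3, 6.91 in KO4 and 7.33 in KO5. KO was below WT in every set, with KO5 just under WT5. The ratio was 0.636 with a 95% interval of 0.481 to 0.841 (log2 difference -0.65 ± 0.18 SE, limma adjusted p = 0.176). All 10 of its exon-level probe sets were below both WT arrays in KO2 and KO3. With KO3 left out the difference was smaller, at -0.48, and its limma adjusted p was 0.0425. Usp18 was the sole member of 33 past the threshold in that fit, which called 259 of 12485 genes lower.

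**Figure D4:**
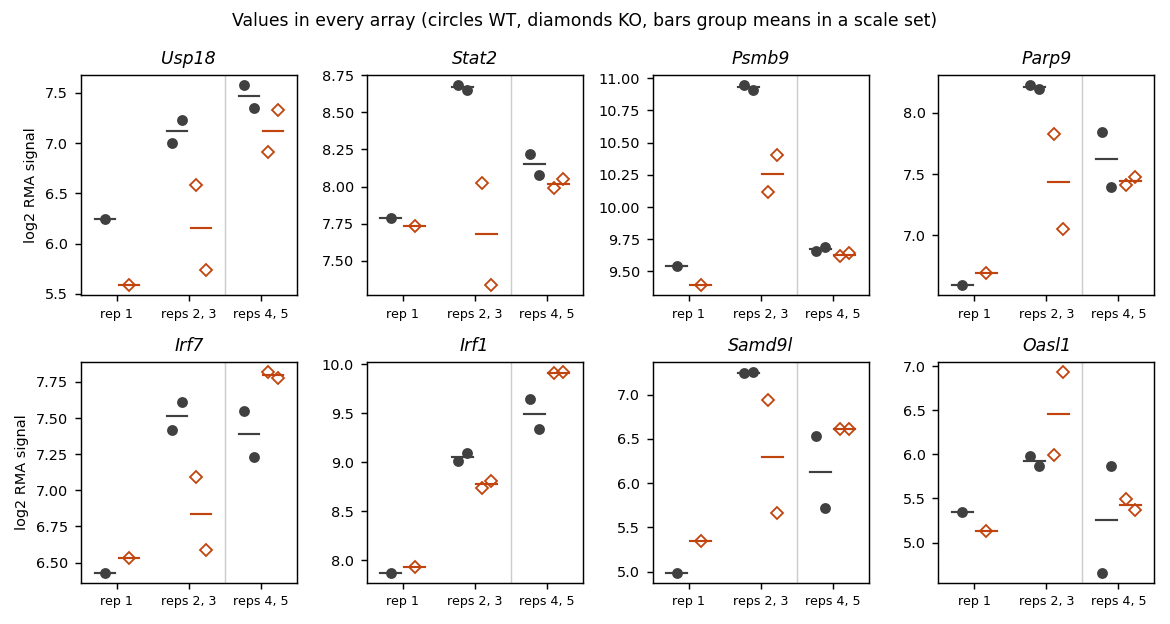
Log2 RMA signal in every array for 8 members, with WT as filled circles, KO as open diamonds and bars at the group mean in each scale set, and vertical axes that differ between genes. In these deposited values Usp18, Stat2 and Psmb9 are lower in KO in all 3 sets. Irf7 and Irf1 lie below WT in replicates 2 and 3 and above it in replicates 4 and 5.

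Of the sensors of viral nucleic acid, Zbp1, which binds Z-form nucleic acid, was at 7.19 in WT1, 8.88 in WT2, 8.78 in WT3, 8.21 in WT4 and 7.79 in WT5. It was at 7.62 in KO1, 8.74 in KO2, 8.70 in KO3, 8.31 in KO4 and 8.28 in KO5. KO was higher in replicate 1 and in the gene-level set and slightly lower in the set between them. Its difference was 0.16 ± 0.13 SE (limma adjusted p = 0.523). Ifih1, the RNA sensor MDA5, differed by 0.09, Dhx58 (LGP2) by -0.13, and Trim25, a ubiquitin ligase that acts on RNA sensing, by -0.07.

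The oligoadenylate synthetase family, whose catalytic members activate RNase L on double-stranded RNA, had a median of 0.57 in KO3, against -0.68 for all members. That median rests on Oasl1, Oasl2 and Oas1a, while Oas2 and Oas3 were at -0.25 and -0.06. The tested markers of other cells had medians of either sign in KO3. These were 0.53 for stromal, 0.31 for erythroid, 0.28 for monocyte, 0.16 for B and plasma cell and 0.11 for dendritic cell markers. They were -0.03 for basophil and mast cell markers and -0.45 for the 1 NK cell marker tested. Oasl1 was at 5.35 in WT1, 5.98 in WT2, 5.87 in WT3, 4.66 in WT4 and 5.86 in WT5. It was at 5.14 in KO1, 5.99 in KO2, 6.94 in KO3, 5.49 in KO4 and 5.36 in KO5. KO3 stood far above the rest of its set, and the WT arrays of the gene-level table lay 1.21 apart, with both KO arrays between them. Its difference of 0.24 ± 0.24 SE was the highest of all members (limma adjusted p = 0.589).

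Oas1a was at 4.01 in WT1, 5.66 in WT2, 4.75 in WT3, 3.96 in WT4 and 4.47 in WT5. It was at 4.07 in KO1, 5.34 in KO2, 5.83 in KO3, 4.37 in KO4 and 4.38 in KO5. The genotypes overlapped in both sets with more than 1 array of each. Its difference was 0.23 ± 0.19 SE (limma adjusted p = 0.522).

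Oasl2 was at 4.06 in WT1, 5.52 in WT2, 5.50 in WT3, 4.79 in WT4 and 5.03 in WT5. It was at 4.42 in KO1, 5.67 in KO2, 6.09 in KO3, 5.00 in KO4 and 4.72 in KO5. KO was above WT in both exon-level sets and overlapped it in the gene-level set. Its difference was 0.20 ± 0.14 SE (limma adjusted p = 0.463). Oas2 differed by -0.08 and Oas3 by -0.14, and for Oas3 the gene-level table alone gave -0.38 (limma adjusted p = 0.249).

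Among the other antiviral effectors, Rsad2 (viperin, which makes a chain-terminating nucleotide) was at 4.08 in WT1, 5.38 in WT2, 5.23 in WT3, 4.93 in WT4 and 5.13 in WT5. It was at 3.95 in KO1, 5.42 in KO2, 5.73 in KO3, 5.23 in KO4 and 5.49 in KO5. KO was above WT in the sets of 2 arrays per genotype and below it in replicate 1. Its difference was 0.21 ± 0.13 SE (limma adjusted p = 0.428).

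The IFIT genes encode proteins that bind foreign RNA. Ifit1 differed by -0.01, Ifit2 by -0.14 and Ifit3 by -0.18, and all 3 were higher in KO1 and lower in KO2 and KO3. Isg20, an exonuclease, differed by -0.02 and Bst2 (tetherin), which holds budding virus at the cell surface, by 0.02. Rtp4 differed by -0.16, Ifi35 by -0.15, Xaf1 by -0.19 and Trim30a by -0.20. In KO3 these last 4 were between 0.74 and 1.17 below WT, and in KO4 and KO5 within 0.11 of it.

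Samd9l, an interferon-induced restriction factor singled out after its values were seen, had the widest spread over KO arrays of the members tested. Its differences were 0.35 in KO1, -0.31 in KO2, -1.59 in KO3, 0.49 in KO4 and 0.49 in KO5. The overall value of -0.11 ± 0.30 SE (limma adjusted p = 0.830) averages over opposite directions. Mx1 and Mx2, dynamin-like GTPases, lay between 3.25 and 5.28 over all arrays and were not tested. Most inbred laboratory mouse strains carry a defective Mx1.

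Gbp3, a guanylate-binding protein that acts on intracellular microbes, differed by -0.06, with -0.77 in KO3 and 0.34 in KO5. In the exon-level table alone, Gbp2 was at 9.19, 10.63 and 10.58 in WT1 to WT3 and at 9.41, 10.30 and 9.58 in KO1 to KO3. Ifi44 was at 3.89, 5.66 and 5.80 in WT and at 4.81, 6.40 and 5.60 in KO. Isg15, the ubiquitin-like protein that USP18 removes, was at 3.65, 5.56 and 5.05 in WT and at 3.97, 5.37 and 4.97 in KO. Gbp2 was below WT in KO2 and KO3, whereas Isg15 was above WT in KO1 and overlapped or lay just below it in the other arrays. None of the 3 was tested.

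Parp9 and Dtx3l are neighbouring genes whose products form an ADP-ribosylation and ubiquitin ligase complex. Parp9 was at 6.59 in WT1, 8.23 in WT2, 8.20 in WT3, 7.85 in WT4 and 7.40 in WT5. It was at 6.69 in KO1, 7.83 in KO2, 7.05 in KO3, 7.42 in KO4 and 7.48 in KO5. KO was below WT without overlap in the second set alone. Its difference was -0.36 ± 0.19 SE (limma adjusted p = 0.374). Dtx3l differed by -0.26 and Parp14 by -0.09. In the gene-level table Dtx3l was at 0.20 and Parp9 at -0.18 relative to WT. In KO3 Parp9 was at -1.16, Dtx3l at -1.16 and Parp14 at -0.93 relative to WT.

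**Figure D5:**
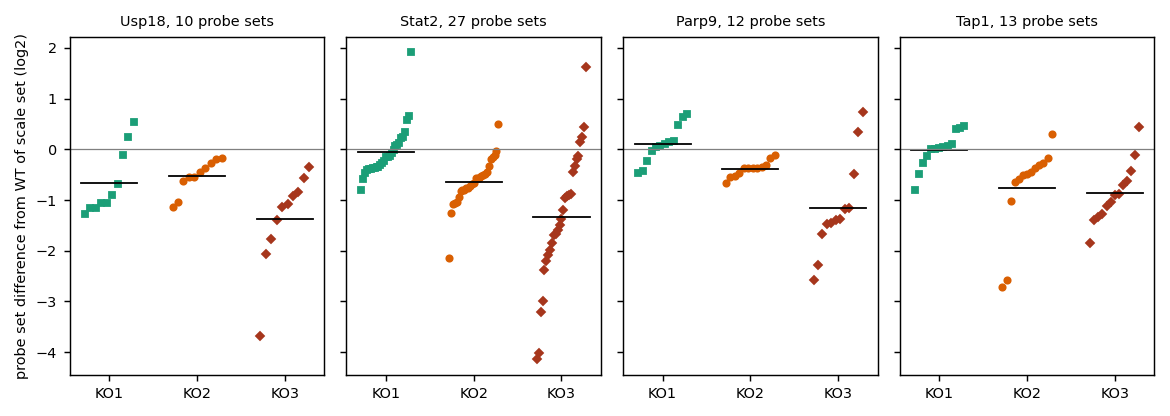
Each point is the log2 difference of 1 exon-level probe set from the WT arrays of its scale set, sorted within each KO array, with a bar at the mean over the gene's probe sets. All 10 Usp18 probe sets lie below 0 in KO2 and KO3, and 12 of 13 Tap1 probe sets do so in each.

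The immunoproteasome subunits Psmb8 and Psmb9 cut peptides for MHC class I, and Tap1 carries them into the endoplasmic reticulum. Psmb9 was at 9.55 in WT1, 10.95 in WT2, 10.91 in WT3, 9.66 in WT4 and 9.69 in WT5. It was at 9.39 in KO1, 10.11 in KO2, 10.41 in KO3, 9.62 in KO4 and 9.64 in KO5. Every KO array lay below the WT arrays of its set, though only by -0.06 and -0.04 relative to the WT mean in KO4 and KO5. Its difference was -0.32 ± 0.14 SE (limma adjusted p = 0.311). After quantile normalization within scale sets, Psmb9 differed by -0.465 in KO2, -0.018 in KO3, 0.008 in KO4 and 0.012 in KO5. The difference over all arrays was then -0.11, and KO was no longer lower in every set. With the array median subtracted instead, Psmb9 stayed below the WT mean in every KO array. Its differences were -0.175 in KO1, -0.789 in KO2, -0.347 in KO3, -0.063 in KO4 and -0.089 in KO5.

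Psmb8 was at 9.29 in WT1, 10.08 in WT2, 10.19 in WT3, 9.64 in WT4 and 9.73 in WT5. It was at 9.13 in KO1, 9.51 in KO2, 9.31 in KO3, 9.71 in KO4 and 9.50 in KO5. The genotypes separated in the exon-level sets and overlapped in the gene-level set. Its difference was -0.35 ± 0.14 SE, a ratio of 0.784 (limma adjusted p = 0.290). Tap1 differed by -0.27 (limma adjusted p = 0.428), and Nlrc5, the transactivator of MHC class I genes, by 0.07. Beside these genes stand the T cell markers, whose medians in KO2 and KO3 were given above as -0.58 and -0.83.

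The tables were also fitted apart, because their values came separately, at exon level and at gene level. In the gene-level table alone 0 members were called in limma (background 0.721% higher and 1.99% lower). At an unadjusted p under 0.05, Irf1, Irf7, Rsad2 and Nlrc5 were higher (12.1%, background 5.81%) and Oas3 was lower (3.03%, background 10.1%). The member median was 0.09, against -0.01 over all genes. In the exon-level table alone 0 members and 0% of all genes were called in limma. At an unadjusted p under 0.05, 5 members were lower (15.2%, background 7.11%) and 0 higher (background 1.05%). The member median was -0.29, against -0.14 over all genes.

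The difference between tables was tested as an interaction of genotype with table. In limma 0 members passed, as did 0% of all genes in either direction. At an unadjusted p under 0.05 the gene-level difference exceeded the exon-level one for Irf1, Irf7 and Tap1 (9.09%, background 3.92%) and was below it for 0 (background 1.35%). For Irf7 the difference between tables was 0.83 and for Tap1 0.67 (limma adjusted p = 0.872 for both). In all, 18 of 33 members were lower at exon level and higher at gene level, a count that was not made over all genes. The opposite signs of the tables are therefore a description of these arrays that did not pass the test.

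A wider list of 101 further interferon pathway genes had 74 tested. Of these, limma called 0 over all 10 arrays, and 59 had a negative difference, with a median of -0.16 against -0.10 over all genes tested. At an unadjusted p under 0.05, 13 were lower (17.6%, background 12.8%) and 4 higher (5.41%, background 2.1%). In the gene-level table alone 2 of 74 were called, both higher, against 0.721% of all genes. Slfn5, a Schlafen family gene, was at 6.76 and 6.78 in WT4 and WT5 and at 7.45 and 7.45 in KO4 and KO5 (difference 0.69, limma adjusted p = 0.0229). Ifi203, of the interferon-inducible p200 family, was at 7.49 and 7.22 in WT and at 8.02 and 8.08 in KO (difference 0.70, limma adjusted p = 0.0322). In the exon-level arrays KO1 was higher than WT1, by 0.22 for Slfn5 and 0.39 for Ifi203. KO2 and KO3 differed from the WT mean by -0.25 and -0.88 for Slfn5 and by -0.19 and -0.89 for Ifi203.

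Of the ligands, Ifng, the type II interferon, differed by -0.30 (limma adjusted p = 0.368). It was higher in KO1, by 0.32, and lower in KO2 to KO5, by values from -0.21 to -0.66. The receptor chains Ifnar1, Ifnar2, Ifngr1 and Ifngr2 differed by 0.08, -0.15, -0.29 and -0.05, and the kinases Jak1 and Tyk2 by -0.24 and -0.35. Jak2, the partner of Jak1 at the type II receptor, was lower in 5 of 5 KO arrays, by -0.23 in KO1, -1.30 in KO2, -1.95 in KO3, -0.32 in KO4 and -0.35 in KO5. Its difference was -0.83 ± 0.23 SE (limma adjusted p = 0.176). Socs1, a brake on these kinases, differed by -0.34 (limma adjusted p = 0.303), and Sp100, a nuclear body protein, by -0.30. Irf8, a factor of the same family as Irf1, was higher in 5 of 5 KO arrays, by 0.35 ± 0.11 SE, and did not pass the threshold (limma adjusted p = 0.219). Irf3, a factor activated by nucleic acid sensing, was lower in 5 of 5, by -0.48 ± 0.12 SE (limma adjusted p = 0.132). Ifnl2, a type III interferon, was higher in 5 of 5, by 0.55 ± 0.17 SE (limma adjusted p = 0.214). Jak2, Irf3 and Ifnl2 were singled out after their values were seen.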

How the data were processed

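RNA was measured on Affymetrix arrays in 5 WT and 5 KO samples. The deposited values are log2 signals made by the authors with RMA, per the submitters' processing notes; no version is named, and joint normalization of the arrays of a table is not stated in the labels. Columns left without a sample numbered 0. Probe sets naming 1 gene were used, as the mean over a gene's probe sets in the exon-level table and the brightest probe set in the gene-level table. Genes under the 30th percentile of mean log2 in either table were left out.

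Differences were fitted by limma 3.58.1 (R 4.3.3), using lmFit then eBayes, with 2-sided p-values adjusted by Benjamini-Hochberg over all genes tested and a threshold of 0.05, and with the scale set as a fixed block. Arrays of a table whose median lay over 0.5 log2 under that table's highest formed a scale set of their own. The fit was tested on simulated data. Values in every array were given for the 5 members with the highest and the 5 with the lowest difference and for Irf1, Irf7, Irf9 and Stat2, and from the pathway list for genes past the threshold, with Ifng, Ifnar1, Ifnar2, Ifngr1, Ifngr2, Jak1, Tyk2, Irf8, Socs1 and Sp100 by their differences. Another gene of that set is not reported here. The members, lists and tests were chosen with earlier results of these data known. Alternatives are given in the closing section. The labels name separate mice, and the number of arrays limits the precision.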

Additional observations from a re-analysis of the deposited data

Results flagged for a closer look

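In 2 members a single KO array stood apart from the other 4 by Dixon's criterion, which chance meets in about 1 in 20 groups of like samples. The KO arrays come from 2 tables and 3 scale sets, so that rate need not hold for them. KO3 also differed in spread over the whole array, and the share of all genes that met the criterion was not counted. For Oas1a, KO3 was 0.62 above the WT mean of its scale set. For Parp14, KO3 was at -0.93.

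In 4 members every exon-level KO array lay below the WT mean of its scale set and both gene-level KO arrays lay above theirs. The share of all genes with this pattern was not counted, so the count has no background. For Oas2 and Dtx3l the gene-level arrays of the genotypes overlapped all the same. Oas2 differed by -0.31 at exon level and by 0.27 at gene level. For Irf9 the values were -0.35 and 0.11. Dtx3l gave -0.56 and 0.20, and Tap1 gave -0.54 and 0.13. The interaction of genotype with table did not pass for any of the 4 (limma adjusted p = 0.872 for each).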

How the results depend on the processing

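The median difference of the members, -0.11 as reported, ranged from -0.17 to 0.03 over 20 alternatives, the highest without KO3. No member was called under the alternatives that kept all 10 arrays. Leaving out 1 array at a time gave 0 to 1 members called lower (Usp18 without KO3, among 259 of 12485 genes called lower). In the exon-level table alone it gave 0 to 1 (Usp18 without KO3, among 316 of 12485 genes called lower). In the gene-level table alone, leaving out a WT array left 1 in that group. Samd9l was then at 0.89 without WT4 and Oasl1 at 0.77 without WT5. All genes called numbered 73 as reported, 4 with the table as block, 31 with the median of exon-level probe sets, 37 with that median and quantile normalization, and 12 to 362 with 1 array left out (362 without KO3, 12 without KO4). The cause was not tested. With a replicate block 23 genes and 0 members were called; correlations of same-numbered samples' deviations ran from -0.304 to 0.392, not every sample correlated best with its own number, and the numbers were not taken to pair the samples. Of 654 member values, 636 moved by less than the member's SD, 17 by more, 1 was newly called and 0 were called values that changed sign. By sign alone, 15 of 33 members changed in at least 1 alternative.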
